A study of Mus musculus with 40 samples.

Results

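The nuclear-encoded subunits of the mitochondrial respiratory chain, with cytochrome c, were followed in mouse cerebral cortex and cerebellum. A probe belonged to the set when its gene name on the array began with Nduf, Uqcr, Cox4i, Cox5, Cox6, Cox7, Cox8 or Atp5, or was Sdha, Sdhb, Sdhc, Sdhd or Cycs. This rule took 128 of 55681 probes and 90 of 36406 gene names. Complex I had 46 probes of 38 genes, complex II 6 probes of 4 genes, complex III 15 of 8, complex IV 24 of 18 and complex V, the ATP synthase, 29 of 17. The name rule also took 5 probes of 4 assembly factors of complex I (the Ndufaf genes) and 3 probes of Cycs. Atp5sl and Atp5s carry the current symbols Dmac2 and Dmac2l, and they were kept with complex V by name.

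Total RNA of each region was hybridized to Agilent 1-colour arrays, 40 in all, with 4 mice per group. Whether both regions came from the same mice is not given in the sources used here. All mice had the C57Bl/6 background. In each region, 2 groups of wild-type mice were fed the normal diet (36 mg of α-tocopherol/kg), one young (2 months old) and one aged (29 months old). The other groups were aged: wild type fed the α-tocopherol-deficient diet, Ttpa-/- fed the same deficient diet and Ttpa-/- mice on the supplemented diet (600 mg of α-tocopherol/kg). The product of Ttpa, α-tocopherol transfer protein, is that through which the liver releases vitamin E into the blood, and the Ttpa-/- mice lack it in all tissues.

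The respiratory chain sits in the inner mitochondrial membrane. Complexes I and II take electrons from NADH and succinate and hand them to ubiquinone, complex III passes them to cytochrome c, and complex IV passes them to oxygen. Complexes I, III and IV pump protons as they work, and complex V lets the protons flow back to make ATP. Neurons draw most of their ATP from this chain, and complexes I and III are well known sites at which reactive oxygen species form, which is the link to vitamin E, an antioxidant of membrane lipids. Most subunits are coded in the nucleus and a small set in the mitochondrial genome. Several subunits of complex IV exist as paralogues, one broadly expressed (Cox4i1, Cox6a1, Cox6b1, Cox7a2, Cox8a) and another known from heart and skeletal muscle (Cox6a2, Cox7a1, Cox8b), lung (Cox4i2) or testis (Cox6b2, Cox8c).

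Promoters of respiratory chain genes are known for binding sites of the factors NRF-1, GABP (an ETS factor), YY1 and CREB. RefSeq windows on GRCm38.p6, from 250 bases before to 50 bases after the start, were found for 75 of the 90 member genes. Letters were searched on both strands, and the list of motifs was chosen with these windows already seen. The NRF-1 letters, GCGC, any 2 bases and GCGC, stood in 19 of the 75 windows (25.3%) and in 6.23% of all 32851 windows. CCGGAAG, the ETS letters, stood in 16 (21.3%, against 8.86%), AAGATGGCG, the YY1 letters, in 7 (9.33%, against 1.4%) and TGACGTCA, the cAMP response element (CRE), in 5 (6.67%, against 1.79%). The CRE windows were those of Cycs, Ndufa10, Ndufa11, Ndufb2 and Uqcrfs1. TATAAA stood in 7 (9.33%, against 13.6%), CAGCTG, an E-box, in 6 (8%, against 16.3%) and the MEF2 letters CTAAAAATA in 0 (against 0.517%). A match describes the letters in the window and is not a binding site. The 250 bases before the start are shown for 6 members on which the results below turn, 5′ to 3′ on the gene's strand, with matches in capitals. Cycs and Uqcrfs1 fell with Ttpa loss and the deficient diet in the cortex. Of the other genes with a CRE, Ndufb2 fell there and Ndufa10 and Ndufa11 did not pass the test. Ndufa1, Ndufb3 and Cox7a1 also fell there, and their windows hold none of the listed motifs. Cox6a1, Cox8a, Cox7a1 and Cox8b are members of broad and muscle pairs that differed between the regions.
Cycs: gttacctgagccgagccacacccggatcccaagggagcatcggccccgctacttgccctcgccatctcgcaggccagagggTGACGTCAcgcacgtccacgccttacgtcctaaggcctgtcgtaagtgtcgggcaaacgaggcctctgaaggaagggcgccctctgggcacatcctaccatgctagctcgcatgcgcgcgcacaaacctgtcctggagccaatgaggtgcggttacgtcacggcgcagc
Uqcrfs1: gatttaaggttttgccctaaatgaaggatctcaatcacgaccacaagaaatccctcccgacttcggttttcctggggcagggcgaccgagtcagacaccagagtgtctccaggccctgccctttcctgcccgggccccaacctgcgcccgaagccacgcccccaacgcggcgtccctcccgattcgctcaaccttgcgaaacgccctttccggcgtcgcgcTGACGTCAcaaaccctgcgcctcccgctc
Cox6a1: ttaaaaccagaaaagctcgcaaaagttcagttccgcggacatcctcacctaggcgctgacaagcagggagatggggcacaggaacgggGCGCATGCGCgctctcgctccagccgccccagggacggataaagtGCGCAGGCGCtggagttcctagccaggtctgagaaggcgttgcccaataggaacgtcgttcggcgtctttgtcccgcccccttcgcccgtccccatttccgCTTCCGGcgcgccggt
Cox8a: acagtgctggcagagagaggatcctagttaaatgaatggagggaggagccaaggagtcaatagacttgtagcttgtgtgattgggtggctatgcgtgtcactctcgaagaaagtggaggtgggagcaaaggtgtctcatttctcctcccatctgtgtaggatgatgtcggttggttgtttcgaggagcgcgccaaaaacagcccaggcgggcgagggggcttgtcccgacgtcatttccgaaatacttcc
Cox7a1: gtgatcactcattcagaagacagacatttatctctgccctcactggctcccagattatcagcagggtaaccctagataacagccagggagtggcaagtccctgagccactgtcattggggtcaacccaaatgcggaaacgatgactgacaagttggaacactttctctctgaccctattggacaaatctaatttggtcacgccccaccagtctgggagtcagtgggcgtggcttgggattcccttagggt
Cox8b: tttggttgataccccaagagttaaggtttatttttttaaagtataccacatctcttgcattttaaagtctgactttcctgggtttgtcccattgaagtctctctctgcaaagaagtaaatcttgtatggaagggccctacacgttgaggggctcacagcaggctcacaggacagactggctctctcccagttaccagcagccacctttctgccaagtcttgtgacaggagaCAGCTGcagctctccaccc

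The Cycs window (chr6:50566570-50566819, minus strand) and the Uqcrfs1 window (chr13:30545317-30545566, minus strand) each carry the palindromic CRE, which begins 169 and 29 bases before the start. The Cycs window also overlaps the non-coding gene 5430402O13Rik. The Cox6a1 window (chr5:115348959-115349208, minus strand) carries 2 NRF-1 matches, 162 and 117 bases before the start, and the ETS letters on the reverse strand (CTTCCGG) at 16 bases. The 250 bases shown for Cox8a (chr19:7217617-7217866, minus strand) and Cox7a1 (chr7:30183921-30184170, plus strand) hold no listed motif, and those for Cox8b (chr7:140900447-140900696, minus strand) hold 1 E-box at 19 bases. The full windows, which run on past the start, also hold the ETS letters for Cox8a and TATAAA for Cox8b, which do not lie wholly within the bases shown.

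Values are log2 signals relative to the array's 75th percentile, which is 0 on this scale, so a difference of 1 is a 2-fold change, and levels of different probes were not compared. The groups were compared with limma over all tested probes, with Benjamini-Hochberg adjustment, and a member rose or fell when its adjusted p was under 0.05. The 75th percentile of the signal was 365 to 925, between 51.4% and 61.4% of an array's probes exceeded background clearly, and arrays of a group correlated at 0.973 to 0.993 across probes, which are not independent replicates. Of the member probes, 126 were well above background on all 40 arrays. Cox8c was above background on 1 array and was not tested in any comparison of conditions, and Cox7b2 was not above background on 1 array each of the young, aged and supplemented Ttpa-/- cortex groups. The SD within groups was 0.11 for the median member probe and 0.193 for the median of all probes tested for age in either region. Marker genes of the cortex had a summed level of 1.69 to 2.25 in the cortex and of -3.96 to -3.40 in the cerebellum, and those of the cerebellum 5.37 to 5.97 in the cerebellum and -1.86 to -1.37 in the cortex. Of the probes of Ttpa itself, A_66_P128446 exceeded background on 4 of 4 arrays in every wild-type cerebellar group, on 0 of 4 of the Ttpa-/- group on the deficient diet and on 1 of 4 on the supplemented diet. In the cortex it was above background on 0 or 1 array of each group and checks nothing there. The other, A_55_P2013701, exceeded background on 1 array in all, of the Ttpa-/- cerebellum on the deficient diet, and checks nothing in either region. The arrays came on 5 slides with 2 groups each. Aged and young wild-type cortex, deficient and normal diet in wild-type cerebellum, and both Ttpa-/- groups of the cerebellum were compared within a slide. In all other comparisons, slide and condition cannot be told apart. The comparisons with the young, the deficient-diet and both Ttpa-/- groups of a region share the aged normal-diet wild-type arrays. Likewise, all comparisons of a region's deficient-diet Ttpa-/- group with other groups use the same 4 arrays of that group. Calls that recur among such comparisons are not independent. In these tissue samples, fewer cells of a type and less RNA per cell cannot be told apart either.

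Large differences lay between the regions, and several of them involved the paralogues of complex IV. Cox6a2 was higher in the cortex, whereas Cox7a1 and Cox6b2 were higher in the cerebellum, in each of the 5 sets of mice. Of 127 member probes tested in all sets, 17 (15 genes) were higher in the cortex in all 5, which is 13.4%, against 20.8% of the 28952 probes of all genes. Another 6 (4.72%, against 19.9%) were lower in all 5. These counts rested on the scaling and the fit, with 3 higher and 2 lower under median scaling, 3 higher and 45 lower under quantile normalization, and 9 higher and 3 lower with the compared groups fitted alone. Complex IV held 8 of the 17 among its 23 probes, complex I 3 of 46, complexes III and V 2 each of 15 and 29, complex II 1 of 6 and the assembly factors 1 of 5. Cox8a had 2 of the probes of complex IV, and both of complex III were of Uqcr11.

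Cox6a2 (mm9, chr7:135349160-135349219, minus strand), the muscle form of subunit 6a, had log2 signals of 2.29 to 3.14 on the 20 cortical arrays. Aged wild-type cerebellum had 1.29, 1.20, 1.21 and 0.90, and young wild-type cerebellum 1.11, 1.17, 1.04 and 0.89. Each cortical array was above each cerebellar array of the same set. At 29 months the difference on the log2 scale was 1.58 (SE 0.208, adjusted p 8.6e-08, limma), and it was 1.61 at 2 months, 2.45 in deficient-diet wild-type mice, and 2.16 and 2.44 in Ttpa-/- mice on the deficient and the supplemented diet. Cox7a1 (chr7:30970337-30970948, plus strand), the muscle form of subunit 7a, went the other way. It was at 0.55, 0.79, 0.82 and 0.20 in aged wild-type cortex, and between 1.48 and 2.56 on all 20 cerebellar arrays. The 5 differences ran from -1.67 to -1.43 and that at 29 months was -1.58 (SE 0.132, adjusted p 4.25e-12, limma). No array of the cortex reached the lowest of the cerebellum. At 29 months, both calls were kept without each array in turn, where the difference of Cox6a2 lay between 1.50 and 1.69 and that of Cox7a1 between -1.66 and -1.45.

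Cox6b2 (chr7:4703488-4703547, minus strand), the testis form of subunit 6b, was at -0.71, -0.94, -0.48 and -0.79 in aged wild-type cortex and at 0.23, 0.22, 0.12 and 0.26 in aged wild-type cerebellum. The differences, cortex minus cerebellum, were -1.09, -0.94, -0.54, -0.35 and -0.69 in the young, aged and deficient-diet wild type and the deficient and supplemented Ttpa-/- sets. The broadly expressed partners were higher in the cortex by smaller amounts. At 29 months, Cox6b1 differed by 0.42 (adjusted p 4.19e-05, limma), Cox6a1 by 0.35 (9.8e-04), Cox8a by 0.33 (0.00116) and Cox4i1 by 0.25 (0.0138). Cox6b1, Cox8a, Cox6a1 and Cox4i1 were higher in all 5 sets, though under quantile normalization Cox4i1 at 2 months (-0.059) and Cox6a1 in deficient-diet Ttpa-/- mice (-0.046) changed sign. Also higher in all 5 were Cox5b, Cox7a2l, Ndufb9, Ndufb6, Ndufa10, Uqcr11, Sdhb, Atp5d, Atp5s and the assembly factor Ndufaf3. For Cox5b, Cox7a2l, Ndufb6 and Sdhb this was a dimmer probe. Without each array in turn, Cox4i1 and Ndufa10 kept their calls in 4 and 5 of 8 fits at 2 months. Cox6a1 kept its call in 6 of 8 fits in deficient-diet Ttpa-/- mice. The dimmer probe of Sdhb kept its call in 3 of 8 fits at 29 months. That of Ndufb6 kept it in 2 of 8 fits at 2 months and in deficient-diet Ttpa-/- mice. That of Cox7a2l kept it in 3 of 8 fits at 29 months and in supplemented Ttpa-/- mice. The brightest Cox7a2l probe passed at 2 months (0.32) and in deficient-diet wild-type mice (0.21) but was at 0.15, -0.03 and 0.02 in the other sets. The brightest probe of Cox5b did not pass at 2 months (0.12, adjusted p 0.169), that of Ndufb6 did not in deficient-diet Ttpa-/- mice (0.06, adjusted p 0.547), and that of Sdhb did not in those mice (0.07, adjusted p 0.499) or at 29 months (0.19, adjusted p 0.0511). For the remaining partners at 29 months, Cox7a2 differed by 0.11 (adjusted p 0.273) and Ndufa4l2 by -0.04 (0.83), both short of the threshold, while Ndufa4, a subunit first assigned to complex I and now placed with complex IV, was lower in the cortex (-0.27, adjusted p 0.0176). Cox4i2 was lower in the cortex and passed at 29 months and in supplemented Ttpa-/- mice, and in no other set. Besides Cox7a1 and Cox6b2, the members lower in the cortex in all 5 sets were Sdhc, a membrane anchor of complex II (-0.73 to -0.37), a dim probe of Ndufv3, Atp5sl and a dim probe of Cycs. Atp5sl was at -0.17 at 29 months and at -0.18 in deficient-diet wild-type mice, where it kept its call in 1 and 3 of 8 fits without an array, and in the latter mice it was at 0.11 under median scaling. The dim Cycs probe kept its call in 2 and 6 of these 8 fits and lost it under 3 and 4 of 8 other settings. The Ndufv3 probes disagreed: at 29 months the dim one was at -0.67 (adjusted p 1.21e-07), whereas the brighter one was at -0.15 and did not pass.

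Taken set by set, the number of members past the test was large, and so was that of all genes. At 2 months, 26 member probes were higher and 31 lower in the cortex (62.5% of all probes passed), and at 29 months 28 and 26 (56.4%). On the deficient diet, wild-type mice had 54 and 12 (66.9%) and Ttpa-/- mice 29 and 43 (65.7%). On the supplemented diet, Ttpa-/- mice had 43 and 18 (60.2%). Among members whose arrays did not overlap and had the smallest adjusted p at 2 months were Atp5s (0.42), the dimmest Cox7a2l probe (0.40), Cox8a (0.36) and Ndufb9 (0.37) on the higher side and Sdhc (-0.46) and Sdhd (-0.42), the other anchor of complex II, on the lower side. At 29 months, Ndufb9 (0.39) stood with Cox6b1, Cox6a1 and Cox8a above, and Sdhc (second probe, -0.43) and a probe of Ndufb11 (-0.51) below. In Ttpa-/- mice on the deficient diet, Atp5l (-0.60) and Uqcrfs1 (-0.55) joined Cox7a1, Ndufv3 and Sdhc below, and in those on the supplemented diet Cox4i2 (-0.76, adjusted p 2.64e-07) did. Few members differed over 1.5-fold. At 2 months there were 7 (38.4% of all probes), Cox6a2 on the higher side and Cox7a1, Cox6b2, Ndufv3, Ndufb11 (-0.60), the dim Cycs probe (-0.59) and Cox7b2 (-1.13) on the lower side. At 29 months there were 6 (33.6% of all probes), Cox6a2 and Cox8b on the higher side and Cox7a1, Ndufv3, Cox6b2 and Cox7b2 (-1.32) on the lower side. In the other aged sets there were 8 in deficient-diet wild-type mice (43.3% of all probes), 7 in Ttpa-/- mice on the deficient diet (41.9%) and 9 in those on the supplemented diet (37.1%). Cox6a2, Cox8b and Ndufaf3 on the higher side and Cox7a1 and the dim Ndufv3 probe on the lower side were among them in each set. The others were Cox6b1 (0.62), a dimmer probe of Cox8a (0.60) and Cox7b2 (-0.86) in deficient-diet wild-type mice, Sdhc (-0.73) and 1 of 6 probes of Atp5l (-0.60) in deficient-diet Ttpa-/- mice, and Cox6b1 (0.59), Cox4i2 (-0.76), Cox6b2 (-0.69) and Cox7b2 (-1.39) in supplemented Ttpa-/- mice. At 2 months, at 29 months and in supplemented Ttpa-/- mice, Cox7b2 passed the filter only through its cerebellar arrays, where it was higher. Its exact permutation p was 0.0857, 0.0571 and 0.0286 in these sets. The split between higher and lower rested on the scaling: at 2 months quantile normalization gave 6 and 75, and normexp background correction 19 and 42.

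By complex, the median difference at 29 months was 0.15 for complex IV, 0.01 for complex I, 0.05 for complex III, -0.05 for complex V and -0.19 for complex II. The mean of a probe's 5 differences had a median of 0.0161 over the members and of 0.0109 over all probes tested in each set. The sign was the same in all 5 sets for 82 members (64.6%, against 70.4% of all probes).

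**Figure D1:**
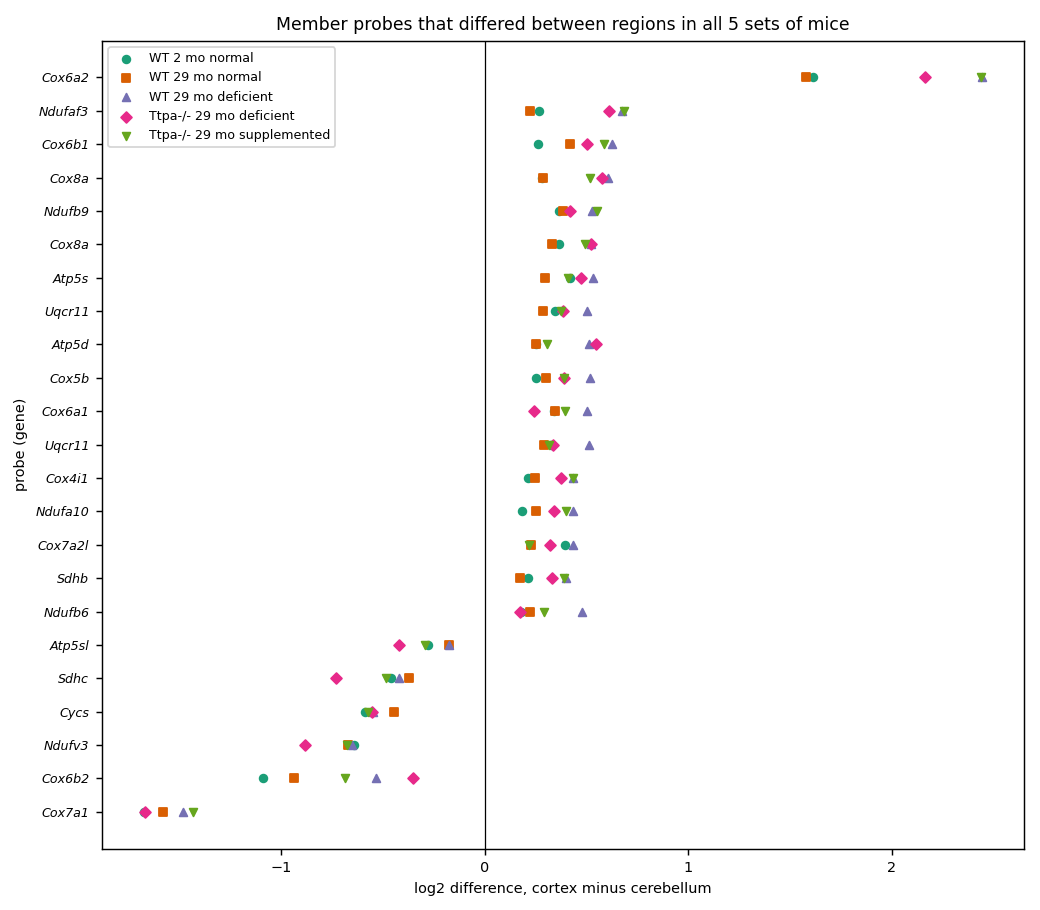
Difference between cortex and cerebellum for the 23 member probes that passed the test in all 5 sets of mice. The x axis is the log2 difference, cortex minus cerebellum, and each symbol is a set (n = 4 arrays per region). Cox6a2 lies farthest to the right, at 1.58 to 2.45, and Cox7a1 farthest to the left, at -1.67 to -1.43.

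Cox8b (chr7:148084852-148084911, minus strand), the muscle form of subunit 8, had the widest spread of the members. In aged wild-type cortex it was at 1.12, 0.32, 2.01 and -2.42, and in young wild-type cortex at 0.25, 0.05, 0.13 and -1.86. Ttpa-/- cortex on the deficient diet had -1.54, 1.44, 1.47 and 1.42. In each of these groups 1 array lay far below the rest. The same 3 arrays had the lowest cortical signals of Ttr, which codes for transthyretin and marks the choroid plexus: 0.76, 1.72 and 3.44, against 5.15 to 7.47 on the other 17. Cox8b on those 17 arrays was at -0.43 to 2.01. In the cerebellum, the highest Cox8b signal (-0.55, young wild-type replicate 1) was on the array with the highest Ttr (7.78), and the other 19 lay between -3.13 and -1.81. The part of choroid plexus in the Cox8b signal was not tested.

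Cox8b was higher in the cortex by 2.28 at 29 months (adjusted p 0.0035, limma), by 3.03 in deficient-diet wild-type mice (1.41e-04), and by 3.45 (2.63e-05) and 3.78 (7.91e-06) in Ttpa-/- mice on the deficient and the supplemented diet. At 2 months the difference was 1.43 (adjusted p 0.0556). Without the 3 arrays of low Ttr, a choice made after seeing the data, it was 1.93 at 2 months, 3.17 at 29 months and 4.19 in Ttpa-/- mice on the deficient diet. These arrays also had the 3 lowest cortical Cox8b signals, and no cerebellar array was left out. The difference therefore had to widen, and these values are no further test of it. Of 5 skeletal muscle genes, 2 were bright enough to be tested, Ckm was at background, and their summed level was -4.29 to -3.21 in the cortex and -5.72 to -4.55 in the cerebellum.

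**Figure D2:**
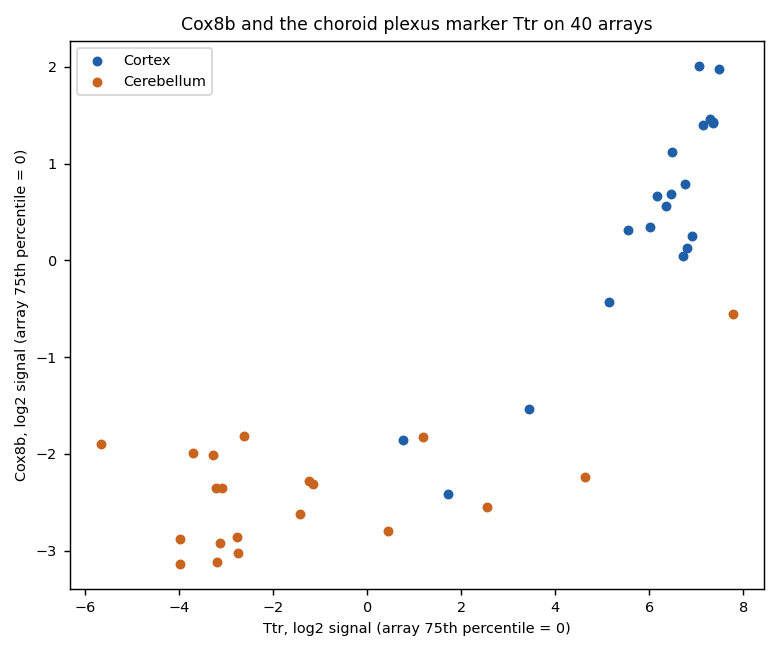
Cox8b against Ttr on the 40 arrays. Both axes are log2 signals relative to the array's 75th percentile, and each point is an array, coloured by region. The 3 cortical arrays of lowest Ttr (0.76, 1.72 and 3.44) have the 3 lowest cortical Cox8b signals, -1.54, -1.86 and -2.42.

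With age, in wild-type mice on the normal diet, the chain as a whole moved little in either region. In the cortex, 0 of 126 tested member probes passed the test in limma, while 4.15% of all probes did. No member changed over 1.5-fold and passed (2.09% of all probes did). At an unadjusted p under 0.05 there was 1 member (14.9% of all probes), and by the methods' t-test, the plain test of each probe that the study names, there were 14 unadjusted and 0 after adjustment. The changes were small and mostly negative: 84.1% of members were lower at 29 months, against 56.4% of all probes, with a median of -0.05 against -0.03. The medians were -0.03 for complex I, -0.04 for complex II, -0.09 for complex III, -0.08 for complex IV and -0.05 for complex V. A list of 18 core subunits was drawn from complexes I to V, with Cox5a and Cox5b standing for complex IV. Not all of them carry a redox centre or a catalytic site. Their changes lay between -0.12 and 0.15.

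In the aged cerebellum, 2 of 127 member probes fell, both of Cycs, and 11% of all probes passed. Of these members 0 changed over 1.5-fold (5.03% of all probes did). Cycs, the mobile carrier between complexes III and IV, was at 5.20, 5.25, 5.25 and 5.16 in young and at 4.99, 4.88, 4.99 and 5.04 in aged wild-type cerebellum by probe A_52_P82247. The young arrays were all above the aged ones. The change was -0.24 (SE 0.0805, adjusted p 0.0485, limma), and that of the brightest Cycs probe, A_55_P2020153, was also -0.24 (SE 0.069, adjusted p 0.0204). Of all members, 85.8% were lower (52.1% of all probes), with a median of -0.08 (-0.01 over all probes), and complexes III and IV had medians of -0.11 each. The count was 0 without young replicate 2 or without aged replicate 2 or 3, and 1 without young replicate 1, 3 or 4 or aged replicate 1. Probe A_52_P82247 lost its call in all 8 fits without an array and under 3 of 8 other settings, and the brightest probe kept its call in 4 of the 8 fits. Without young replicate 1 neither passed, and the member called was another. Beside these values, 4 of 5 microglial markers rose in the aged cerebellum (median 0.84) and 3 of 6 tested choroid plexus markers fell (median -2.39), and their part was not tested. The effect of age differed between the regions for 0 members in limma, with 1.83% of all probes, and for 1 at an unadjusted p under 0.05 (11.9%).

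The Ttpa-/- mice on the deficient diet lacked both the transfer protein and dietary α-tocopherol. In their cortex, 2 of 3 probes of Cycs and 8 of 46 of complex I were lower than in the aged wild type of the normal diet. The alternative complex IV subunits Cox4i2 and Cox6b2 were higher. Of 127 member probes, 18 fell (15 genes) and 2 rose. Of all probes, 19% passed, 9.56% on the lower and 9.44% on the higher side, so that the share of members that fell (14.2%) was above that of all genes and the share that rose (1.57%) below it. A fold change over 1.5 was reached by 1 called member, Cox4i2, and by 4.75% of all probes. The median member changed by -0.13, against -0.02 for all probes and -0.10 for the brightest 10% of them, and 82.7% of members were lower (53.4% of all probes). By complex, 8 of 46 probes of complex I fell, 0 of 6 of complex II, 1 of 15 of complex III, 3 of 23 of complex IV, 3 of 29 of complex V, 2 of 3 of Cycs and 1 of 5 of the assembly factors. The counts of complexes III and V were near the share of all probes that fell (9.56%), and that of complex III was Uqcrfs1 alone. The median log2 signal of the members was 5.24 ± 0.11 (SD, n = 4) in this group and 5.39 ± 0.07 in aged wild-type cortex, and the arrays of the groups overlapped in it.

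Cycs had the largest fall among the called members. Probe A_52_P82247 (chr6:50514522-50514581, minus strand) was at 4.95, 5.02, 4.79 and 4.75 in aged wild-type cortex and at 4.22, 4.32, 4.24 and 4.63 in Ttpa-/- cortex on the deficient diet. No array of one group reached the other. The change was -0.52 (SE 0.0805, adjusted p 8.06e-05, limma), or 1.44-fold. The brightest Cycs probe changed by -0.20 (adjusted p 0.0363) and the dim one by -0.30 (adjusted p 0.275), so the probes agreed in sign and differed in size.

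The other falls were smaller. Ndufa1, an accessory subunit of complex I, went from 5.69, 5.67, 5.58 and 5.51 to 5.10, 5.27, 5.23 and 5.49, without overlap, a change of -0.34 (SE 0.0857, adjusted p 0.00593, limma). Uqcrfs1 (chr13:30632363-30632422, minus strand), the Rieske iron-sulphur protein of complex III, went from 4.99, 5.04, 4.84 and 4.99 to 4.51, 4.62, 4.57 and 4.90. That was -0.32 (SE 0.0829, adjusted p 0.00722), with replicate 4 of the Ttpa-/- mice inside the wild-type range. Of complex I, Ndufb3 (-0.29), Ndufc1 (-0.32), 1 of 3 probes of Ndufb11 (-0.28, the others -0.21 and 0.18), 1 of 2 of Ndufb5 (-0.23, the brighter -0.11), 1 of 2 of Ndufa5 (-0.28, the dimmer -0.22) and both probes of Ndufb2 (-0.26 and -0.25) fell, as did the assembly factor Ndufaf2 (-0.29). In complex IV, Cox6c fell (-0.26), Cox7a1 fell (-0.42, adjusted p 0.0236), and 1 of 3 Cox7c probes fell (-0.27), with the others at -0.18 and -0.19. In complex V, Atp5g3, a gene of the proton-carrying c ring, fell (-0.26) and so did both probes of Atp5j2 (-0.26 and -0.24).

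Of 18 core subunits, 1 passed, Uqcrfs1. Atp5b (0.00), Ndufv2 (-0.02) and Sdha (-0.07) were close to 0, Atp5a1 was at -0.18, and Uqcrc1 (0.14) and Cox5b (0.16) were at values above 0, none of them past the test. Cox4i1, the usual form of subunit 4, was at 7.45 ± 0.04 in aged wild-type and 7.44 ± 0.03 in Ttpa-/- cortex (SD, n = 4), a change of -0.01.

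Calls in this comparison depended on the arrays and on the fit. Leaving out an array gave 6 to 39 called members: 10, 7 and 13 without aged wild-type replicates 1, 2 and 3, and 6, 10, 6 and 39 without Ttpa-/- replicates 1 to 4. Cycs and Cox4i2 kept their call without each array and under 8 other settings (3 scalings or background corrections, the deposited values, no filter, array weights, the compared groups alone and the replicate block), whereas the other 18 probes lost theirs under median scaling and with the compared groups fitted alone. Without the arrays of low Ttr, 6 members were called: Cycs (-0.52), Cox7a1 (-0.54), Ndufa1 (-0.31), Cox7c (-0.30), Cox4i2 (0.55) and Cox6b2 (0.53). Among marker genes, 2 of 5 neuronal (median -0.15), 2 of 5 astrocytic (-0.30), 1 of 5 oligodendrocytic (-0.46) and 1 of 5 microglial genes fell, 2 of 6 striatal genes rose (0.60), and 0 of 7 choroid plexus genes passed (median 0.79). The part of cell makeup in the members' changes was not tested.

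**Figure D3:**
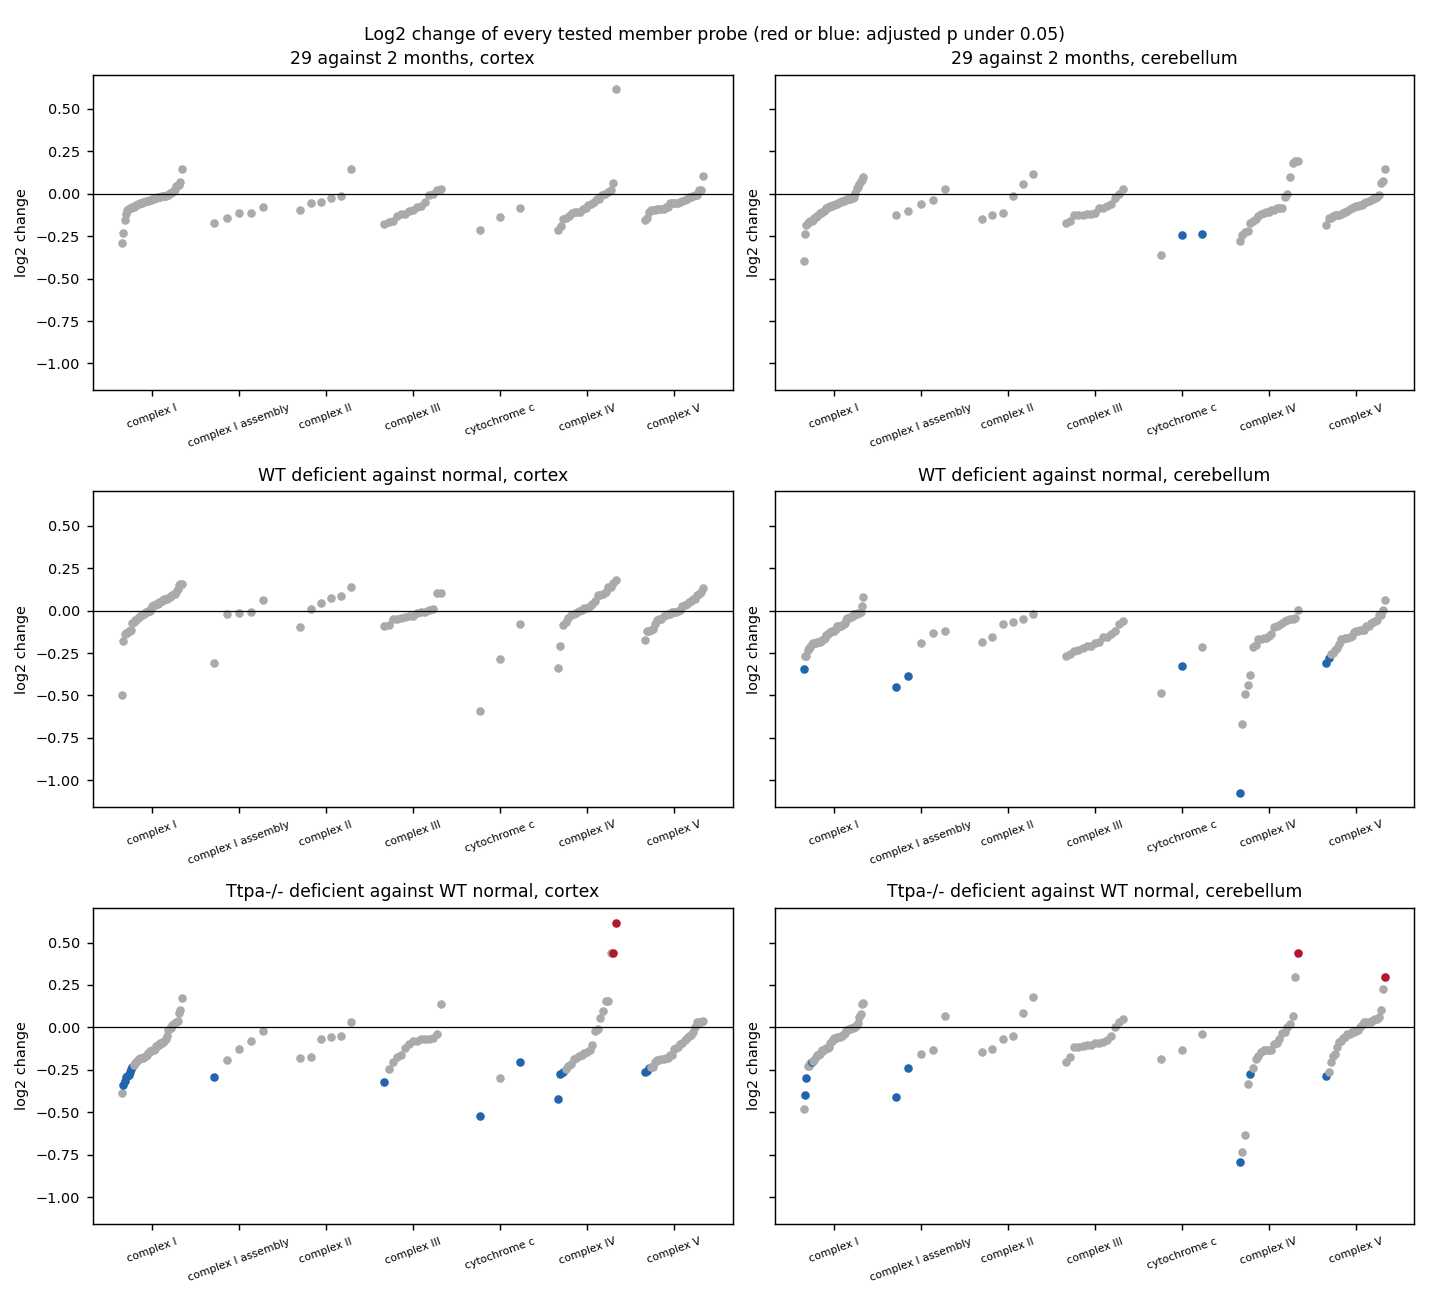
Log2 changes of the tested member probes by complex, for 29 against 2 months in wild-type mice (top), deficient against normal diet in wild-type mice (middle) and Ttpa-/- mice on the deficient diet against wild-type mice on the normal diet (bottom), in the cortex (left) and the cerebellum (right). Each point is a probe, and colour marks an adjusted p under 0.05 in limma (higher or lower). Most points lie between -0.5 and 0.5, below 0 on balance in each panel but that of the wild-type cortex on the deficient diet.

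Cox4i2 (chr2:152590711-152590770, plus strand), an isoform of complex IV subunit 4 known for its induction by low oxygen, was the member that rose most in the Ttpa-/- cortex. It was at -1.08, -0.998, -1.01 and -1.08 in aged wild-type cortex and at -0.26, -0.47, -0.28 and -0.70 in Ttpa-/- cortex on the deficient diet. The groups did not overlap, and the change was 0.62 (SE 0.106, adjusted p 2.52e-04, limma), or 1.53-fold. An exact two-sided permutation test gave p = 0.0286, the smallest that 4 against 4 arrays allow, for Cox4i2 and for Cycs. In the cortex of Ttpa-/- mice on the supplemented diet it was at -1.05, -0.93, -0.97 and -0.94, and in deficient-diet wild-type mice at -0.95, -0.67, -1.08 and -0.83. Both groups lay below the Ttpa-/- mice on the deficient diet but for 1 wild-type array, at -0.67.

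In the cerebellum both Ttpa-/- groups were high. Cox4i2 was at -0.78, -0.84, -0.80 and -0.61 in the aged wild type with the normal diet and at -0.84, -0.66, -0.71 and -0.82 on the deficient diet. Ttpa-/- mice had -0.34, -0.28, -0.18 and -0.49 on the deficient and -0.15, 0.06, -0.55 and -0.23 on the supplemented diet, all above every aged wild-type array. Against the normal-diet wild type, the changes were 0.44 (adjusted p 0.00651, limma) and 0.54 (adjusted p 0.00101). These comparisons share the wild-type arrays. Young wild-type mice were at -0.94 ± 0.08 in the cortex and -0.74 ± 0.17 in the cerebellum (SD, n = 4). Cox4i2 is known from cells of small vessels, so vessel genes were set beside it. Kdr, an endothelial receptor, rose by 0.42 in the cortex and 0.45 in the cerebellum of Ttpa-/- mice on the deficient diet and by 0.50 in the cerebellum on the supplemented diet, while Flt1 fell in the cortex (-0.55) and Pecam1 (0.28) and Cldn5 (0.10) did not pass there. The summed level of the 4 genes was 1.81 to 1.94 in aged wild-type and 1.80 to 2.10 in Ttpa-/- cortex on the deficient diet. In the cerebellum it was 1.64 to 1.88 in aged wild-type mice, and 1.84 to 2.06 and 1.80 to 2.07 in Ttpa-/- mice on the deficient and the supplemented diet. The part of vessel content in Cox4i2 was not tested.

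Cox6b2 was the other member that rose in the Ttpa-/- cortex on the deficient diet, from the aged wild-type values given above to -0.61, -0.14, -0.15 and -0.25. The change was 0.44 (SE 0.126, adjusted p 0.0136, limma), and 1 Ttpa-/- array lay inside the wild-type range. Its broad partner Cox6b1 did not pass.

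**Figure D4:**
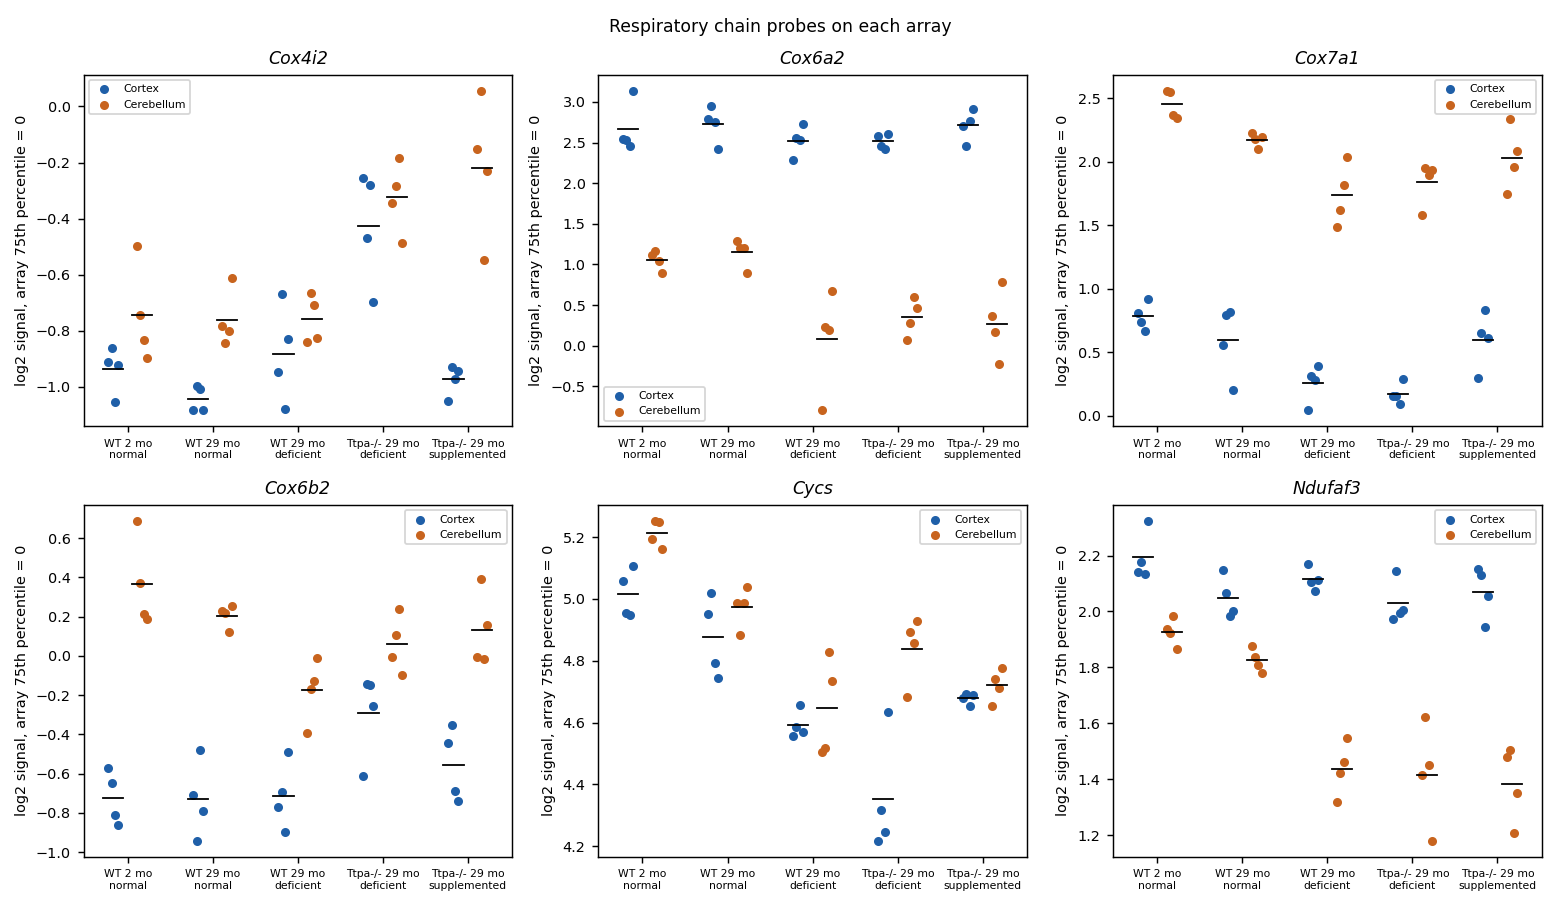
Log2 signal of 6 members on every array, relative to the array's 75th percentile (0). The x axis gives the 5 groups, blue points are cortical and orange points cerebellar arrays, and the line is the group mean (n = 4). Cycs is shown by probe A_52_P82247, which is not its brightest. Cox4i2 is high in the Ttpa-/- cortex on the deficient diet (-0.70 to -0.26) and in both Ttpa-/- groups of the cerebellum (-0.55 to 0.06), and Cox6a2 and Ndufaf3 are low in the cerebellum of the deficient-diet wild type and of both Ttpa-/- groups.

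In the cerebellum of Ttpa-/- mice on the deficient diet, Cox6a2 and members of complex I and its assembly fell. Cox4i2 rose and a probe each of Cox7c and Atp5j2 fell in both regions of these mice. Of 127 probes, 8 fell and 2 rose against the aged wild type of the normal diet, with 13.2% of all probes called (6.41% lower and 6.78% higher). The median member changed by -0.08, against -0.02 over all probes, and 76.4% of members were lower (53.8%). Cox6a2 showed the largest fall: aged wild-type cerebellum had the values given above, all at or over 0.90, and the Ttpa-/- arrays were at 0.07, 0.28, 0.60 and 0.47. The groups did not overlap and the change was -0.79 (SE 0.208, adjusted p 0.0106, limma), or 1.73-fold, the only call over 1.5-fold among the members (4.46% of all probes). The call held without each array in turn and under the 8 other settings.

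Several of the members that fell belonged to complex I and its assembly factors. Ndufaf3 (chr9:108468692-108468899, minus strand), which acts with Ndufaf4 early in the assembly of complex I, went from 1.88, 1.84, 1.81 and 1.78 to 1.41, 1.62, 1.45 and 1.18. Every Ttpa-/- array was below every wild-type array, by -0.41 on average (SE 0.0763, adjusted p 6.31e-04, limma). Ndufs8, a core subunit that binds iron-sulphur clusters, went from 3.30, 3.04, 3.06 and 3.22 to 2.74, 3.08, 2.76 and 2.46, a change of -0.40 (SE 0.0879, adjusted p 0.00308), with 1 Ttpa-/- array inside the wild-type range. Ndufaf4 changed by -0.24 (second probe -0.13, not past the test) and Ndufb7 by -0.21, with an adjusted p under 0.05 for each value but that of the second Ndufaf4 probe. The probes of 3 other genes disagreed. For Cox7c 1 probe fell (-0.28) and the others were at 0.06 and 0.30. For Atp5j2 the dimmer probe fell (-0.29) and the brighter was at -0.16, and for Atp5c1, the central stalk of complex V, the dimmer rose (0.29) and the brighter was at -0.02. The count was 6 without aged wild-type replicate 1 and 18 without Ttpa-/- replicate 2, and all calls but that of Cox6a2 were lost under median scaling. Of oligodendrocyte markers 2 of 5 fell (median -0.39), of microglial markers 2 of 5 and of neuronal markers 1 of 5, and their part was not tested.

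The deficient diet alone, in wild-type mice, was accompanied by 0 called members in the cortex and by 7 in the cerebellum. In the cortex 0 of 127 members passed in limma (0.34% of all probes did), 0 of them over 1.5-fold (0.223%), 6 at an unadjusted p under 0.05 (15.6%), and by the methods' t-test 21 unadjusted and 0 after adjustment. The median change was -0.0048, and the count was 1 without aged wild-type replicate 4 on the normal diet and 2 without replicate 4 on the deficient diet. Cycs was at 4.56, 4.59, 4.66 and 4.57 on the deficient diet, below each array on the normal diet, and changed by -0.28 (adjusted p 0.0917). Cox7a1 was at -0.34 (adjusted p 0.209).

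In the wild-type cerebellum, 122 of 127 members were lower on the deficient diet (96.1%, against 51.9% of all probes), with a median of -0.14 against -0.01 over all probes and -0.06 over the brightest 10%. All 15 probes of complex III, all 6 of complex II, 44 of 46 of complex I, 22 of 23 of complex IV and 27 of 29 of complex V were lower. These probes share their arrays, and the median log2 signal of the members was 5.22 ± 0.06 on the deficient and 5.33 ± 0.11 on the normal diet (SD, n = 4), with overlap between the arrays of the groups. Of the members, 7 probes fell and 0 rose, with 4.58% of all probes called, 3.41% on the lower side. Cox6a2 was at -0.79, 0.24, 0.19 and 0.67 on the deficient diet, below all arrays on the normal diet, and changed by -1.07 (SE 0.208, adjusted p 0.00615, limma), or 2.10-fold, the only call over 1.5-fold (1.27% of all probes). Ndufaf3 was at 1.32, 1.42, 1.46 and 1.55, again without overlap, and changed by -0.39 (adjusted p 0.0066). Cycs was at 4.50, 4.52, 4.83 and 4.74 and changed by -0.33 (adjusted p 0.0203), also without overlap, while its brightest probe was at -0.22 (adjusted p 0.0612).

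The other members that fell were Ndufaf2, a late assembly factor of complex I (-0.45), Ndufc1 (-0.35), Atp5d, a subunit of the central stalk (-0.31), and 1 of 2 probes of Atp5j2 (-0.28, the brighter -0.25). Cox7a1 (-0.44, adjusted p 0.0501) and Ndufs8 (-0.27, adjusted p 0.07) did not pass, nor did any core subunit (-0.27 to 0.06). Both groups were on 1 slide. All 7 calls were lost with these groups fitted alone, and the methods' t-test gave 42 unadjusted and 0 after adjustment. The count was 2, 3 and 3 without normal-diet replicates 1, 3 and 4, and 0, 3 and 11 without deficient-diet replicates 1, 2 and 4. Of oligodendrocyte markers 1 of 5 fell (median -0.55) and of neuronal markers 1 of 5, and their part was not tested.

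Within Ttpa-/- mice, the deficient diet was compared with the supplemented diet. In the cortex, 9 member probes fell and 1 rose, with 14.1% of all probes called, 0 members over 1.5-fold (3.31%), and the median member was at -0.12 (85% of members lower, against 53% of all probes). Cox4i2 rose by 0.55 (adjusted p 0.00126, limma). Uqcrfs1, at 5.003, 5.02, 4.98 and 4.93 on the supplemented diet and hence above every array on the deficient diet, changed by -0.34 (adjusted p 0.00721). Cycs, at 4.68, 4.69, 4.65 and 4.69 with supplementation, changed by -0.33 (adjusted p 0.00747), again without overlap, while its brightest probe was at -0.13 and the dim one at 0.14. Cox7a1 (-0.43), Ndufs1, the largest core subunit of complex I (-0.19), Ndufb3 (-0.27), Ndufa1 (-0.26), Cox7a2l, a factor of supercomplexes (-0.27, the brightest probe -0.25 and not past the test), Atp5g3 (-0.25) and 1 of 6 probes of Atp5l (-0.27, the others -0.18 to -0.10) also fell. The count was 4, 4, 3 and 26 without deficient-diet replicates 1 to 4, and 5, 3, 5 and 5 without supplemented replicates 1 to 4. Without the array of low Ttr it was 3, with Cox4i2 at 0.49 and Cycs at -0.28 among them. In the cerebellum, where both groups shared a slide, 0 of 127 members passed in limma (0.767% of all probes), 0 over 1.5-fold (0.343%), 8 at an unadjusted p under 0.05 (11.6%), and by the methods' t-test 2 unadjusted and 0 adjusted. Cox4i2 there was at -0.11 (adjusted p 0.824), and the count was 1 without deficient-diet replicate 2.

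With both genotypes on the deficient diet, 8 members fell and 2 rose in the Ttpa-/- cortex, with 13% of all probes called. Cox4i2 (0.46) and Cox6b2 (0.42) rose. Atp5g3 (-0.29), Cox7c (-0.26) and Cox7a2l (-0.26) fell without overlap between arrays, and Uqcrfs1 (-0.31), Cycs (-0.24), Ndufb3, Ndufv3 and Sdhb, the iron-sulphur subunit of complex II, fell with overlap. The brightest probes of Cycs (-0.12), Cox7c (-0.16) and Ndufv3 (-0.16) did not pass. The count was 2, 5 and 3 without wild-type replicates 1, 2 and 3, and 3, 4, 1 and 25 without Ttpa-/- replicates 1 to 4, and 0 under median scaling or with these groups fitted alone. In the cerebellum, 7 members rose and 0 fell, with 12.8% of all probes called and a median of 0.05. These were Cox4i2 (0.43), Atp5c1 (0.36), Atp5l (0.36), Ndufa8 (0.28), Ndufb2 (0.26), Ndufaf2 (0.30) and Uqcrq (0.25). The first 4 did not overlap. The brightest probes of Atp5c1 (0.04), Atp5l (0.06), Ndufb2 (0.12) and Uqcrq (0.11) did not pass. The count was 3 without wild-type replicate 1 or 2, and 17, 4 and 3 without Ttpa-/- replicates 1, 2 and 4. All 7 calls were lost with these groups fitted alone, and the count was 4 without the filter or with array weights and 27 under quantile normalization. By the methods' t-test it was 8 unadjusted and 0 after adjustment. These wild-type arrays are those that were low in the comparison of diets.

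On the supplemented diet, the Ttpa-/- cortex was close to the normal-diet aged wild type. Of 126 member probes 0 passed in limma (0.212% of all probes), 2 at an unadjusted p under 0.05 (8.51%), and by the methods' t-test 8 unadjusted and 0 adjusted, with a median change of 0.01. In the cerebellum 15 members fell and 1 rose, with 14.7% of all probes called (7.07% lower, 7.59% higher) and a median of -0.10. Ndufab1 (chr7:129231667-129231726, minus strand), the mitochondrial acyl carrier protein and a subunit of complex I, was at -2.01, -2.17, -1.93 and -2.06 in aged wild-type cerebellum and at -2.82, -2.99, -3.12 and -2.71 in these Ttpa-/- mice. On the deficient diet it was at -2.65, -2.53, -2.56 and -2.35. The arrays on the supplemented diet were all below the wild-type ones, by -0.87 on average (SE 0.173, adjusted p 0.00118, limma), or 1.83-fold.

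Ndufaf4 (chr4:24830284-24830343, plus strand) went from 2.18, 2.05, 2.06 and 1.97 in aged wild-type cerebellum to 1.64, 1.53, 1.66 and 1.69 in Ttpa-/- cerebellum on the supplemented diet. The groups did not overlap, with a change of -0.43 (adjusted p 6.46e-05), and a second probe changed by -0.30 (adjusted p 0.038). Ndufaf3, at 1.48, 1.50, 1.21 and 1.35 in the Ttpa-/- group, changed by -0.44 (adjusted p 2.86e-04). Cox6a2, at 0.36, 0.16, -0.22 and 0.79, changed by -0.88 (adjusted p 0.00484), or 1.84-fold, without overlap. Cox4i2 was the member that rose. Cox7b (-0.25), Cox7c (-0.29), Ndufs8 (-0.33), Ndufaf2 (-0.33), Cycs (-0.25), a dimmer probe of Sdhc (-0.25, with the brighter at 0.12), Cox5a, Ndufb7, Uqcrh and Atp5j2 also fell. The brightest probes of Cox7c (0.01), Cycs (-0.19) and Atp5j2 (-0.12) did not pass. Ndufaf4 by its first probe and Ndufab1 kept their calls without each array and under the 8 other settings. The second Ndufaf4 probe kept its call in 3 of 8 fits without an array and under 4 of the 8 settings. The count was 8 without aged wild-type replicate 1, and 10, 28 and 10 without Ttpa-/- replicates 1, 2 and 3. It was 4 under median scaling, 3 with these groups fitted alone and 38 with array weights.

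Whether an effect differed between the regions was tested as an interaction, given as the effect in the cerebellum minus that in the cortex. For the deficient-diet Ttpa-/- group against the normal-diet wild type, 3 members passed, with 7.04% of all probes. Ndufaf3 was at -0.39 (adjusted p 0.0261, limma): it was lower in the cerebellum of these mice and at 2.03 against 2.05 in the cortex. Cycs was at 0.39 (adjusted p 0.0336), with changes of -0.52 in the cortex and -0.13 in the cerebellum, while its other probes were at 0.17 and 0.11 and did not pass. Cox6b2 was at -0.58 (adjusted p 0.041), with a rise in the cortex and -0.01, 0.11, 0.24 and -0.10 on the cerebellar arrays against 0.12 to 0.26 in the wild type. The count ran from 0 (without Ttpa-/- cortex replicate 2, aged wild-type cerebellum replicate 1 or Ttpa-/- cerebellum replicate 4) to 11 (without Ttpa-/- cortex replicate 4). It was 1 without wild-type cortex replicate 1 or 2, Ttpa-/- cortex replicate 3 or wild-type cerebellum replicate 2 or 3, and 10 and 5 without Ttpa-/- cerebellum replicates 1 and 2. For the supplemented diet, Ndufaf4 (-0.47, adjusted p 0.00681, with the second probe at -0.16 and not past the test) and Ndufaf3 (-0.46, adjusted p 0.0247) passed, with 1.19% of all probes, and the count without an array was 1 to 3. Ndufaf4 in the cortex was at 1.89, 1.94, 1.79 and 1.79 in aged wild-type and at 1.90, 1.85, 1.90 and 1.92 in supplemented Ttpa-/- mice, which overlapped. Slide and group cannot be told apart in these interactions.

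Subunits coded in the mitochondrial genome had 11 probes, from a list kept apart from the members. None of the 11 passed with age or with the deficient diet in wild-type mice. With so few probes, this does not show that they were unchanged, and the shares of all probes are given above. Nor did any pass in the cortex of Ttpa-/- mice on the deficient diet, where changes were -0.05 to 0.13. In the cerebellum of those mice 5 fell, ND1 (-0.56), ND4L (-0.52), ND2 (-0.39), ATP8 (-0.36) and ND5 (-0.30), with adjusted p between 8.26e-04 and 0.0182 (limma), and the median was -0.22, while 6.41% of all probes fell. Cortex exceeded cerebellum for 10, 8, 8, 11 and 6 of the 11 in the 5 sets, where 62.5%, 56.4%, 66.9%, 65.7% and 60.2% of all probes passed in either direction, with median differences of 0.35, 0.24, 0.27, 0.47 and 0.25, and for 0 it was lower.

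Proteins of the mitochondrial ribosome, which translates those subunits, had 75 tested genes. With age 0 passed in either region, where the shares of all probes are those given above. In Ttpa-/- mice on the deficient diet 13 fell and 3 rose in the cortex (median -0.11) and 8 fell and 1 rose in the cerebellum, where 9.56% and 6.41% of all probes fell. In wild-type cerebellum on the deficient diet 16 fell (median -0.15), with 3.41% of all probes. Against the supplemented diet, 10 fell and 3 rose in the Ttpa-/- cortex (14.1% of all probes passed), and 15 fell in the cerebellum of supplemented Ttpa-/- mice (median -0.13), with 7.07% of all probes.

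In the lists that follow, the shares of all probes that passed were 19% in the Ttpa-/- cortex and 13.2% in the Ttpa-/- cerebellum on the deficient diet and 4.58% in wild-type cerebellum on that diet. Of 25 further assembly factors, Lrpprc, which stabilizes mitochondrial messengers (-0.33), Cox11 (-0.30) and Tmem126b (-0.25) fell in the Ttpa-/- cortex on the deficient diet. In the cerebellum of these mice Cox17, the copper chaperone of complex IV, rose by 1.91 (adjusted p 1.24e-06, limma), Cox15 rose (0.33), and Surf1 (-0.29), Cox19 (-0.26) and Tmem126b (-0.43) fell. In wild-type cerebellum on the deficient diet Bcs1l, which inserts the Rieske protein into complex III (-0.41), and Sdhaf2, which flavinates Sdha (-0.28), fell. Of 12 regulators of mitochondrial gene expression, Ppargc1a, the coactivator PGC-1α (-0.42), Pprc1 (-0.47) and Tfb2m, a mitochondrial transcription factor (-0.32), fell in the Ttpa-/- cortex. In the Ttpa-/- cerebellum Nrf1 (0.34) and Ppargc1b (0.39) rose and Tfam fell (-0.22), and in wild-type cerebellum on the deficient diet Tfb1m fell (-0.46). At 29 months, when 56.4% of all probes passed in either direction, 6 of the 12 were lower in the cortex: Ppargc1b (-1.06), Nrf1 (-1.04), Polrmt (-0.68), Gabpa (-0.63), Esrra (-0.44) and Tfam (-0.28). Of 16 genes of the tricarboxylic acid cycle, which feeds the chain with NADH and succinate, Dlat fell in the Ttpa-/- cortex (-0.23), and Idh3b (-0.30), Sucla2 (-0.26) and Suclg2 (-0.36) fell in the Ttpa-/- cerebellum. Of 9 carriers of adenine nucleotides, phosphate and protons, 0 passed in either region of these mice.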

How the data were processed

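Cortical and cerebellar RNA was measured on 40 Agilent 1-colour arrays. For each array the authors deposited the spot-level output of Feature Extraction 10.7.3.1 (10.1.1.1 in the submitters' processing notes), with 61 columns, of which 15 were used. Its processed signal, mean signal and local background are an intensity each, without normalization between arrays, and its deposited flags take 0 or 1. Log2 values deposited by the authors equal the log2 signal over the array's 75th percentile, centred per probe (median absolute difference 0.000915), and were used as an alternative.

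Non-uniform spots and population outliers, as flagged, were dropped (95 to 148 of 59305 gene spots per array), spots of a probe were averaged, and the log2 of the 75th percentile was subtracted. A value on every array was available for 55589 of 55681 probes, and 0 were saturated. R 4.3.3 with limma 3.58.1 was used, with a coefficient for each of 10 groups, no block and empirical Bayes moderation. Tested probes had to exceed background clearly on each of the 4 arrays of one or both groups compared, and p was adjusted over all of them. Exact permutation tests were two-sided. The number of arrays limits the precision.

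Groups came from the labels. Members, gene lists and motifs were chosen with earlier results of these data known. The text names each called member with a change over 1.5-fold, the 5 of smallest adjusted p in each direction whose arrays did not overlap, paralogues of complex IV, ATP synthase c and Cycs, and core subunits, the last 2 kinds partly as counts. The brightest probe stands for a gene in counts of paralogues and core subunits, and other called probes are given too. Cycs with no probe named is A_52_P82247, which is not its brightest. Disagreeing probes are named. One member is not reported here by name. Gene names and positions are those of the files (mm9). Of the member probes, 122 were matched by accession in RefSeq, and 3 genes carry another symbol there. Promoters are RefSeq's on GRCm38.p6.

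Replicate numbers were checked for pairing through the correlation of same-numbered arrays' deviations. Every pair exceeded 0.1 for deficient against supplemented diet in Ttpa-/- cortex (0.102 to 0.45) and for cortex against cerebellum in Ttpa-/- mice on the deficient diet (0.138 to 0.48), and in no other comparison. Alternatives were median scaling, quantile normalization, normexp with an offset of 50, the deposited log2 values, no filter, array weights, compared groups alone, the replicate block, the slide as a block, the methods' t-test, a fold change over 1.5 as well, and leaving out each array. Leaving out the 3 cortical arrays of lowest Ttr, and the interaction for the supplemented diet, were added after seeing the data. The model was tested on simulated data for age in the cortex alone. The simulated noise was independent between probes, without shifts of arrays or slides. The dependence of calls on arrays and scaling was therefore not covered.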

Additional observations from a re-analysis of the deposited data

Results flagged for a closer look

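Of 90 groups of 4 arrays checked for named members, 7 had an array that stood apart from the other 3 by Dixon's test, and chance gives about 1 in 20. Cox8b had 3 of these: young wild-type cortex at -1.86, Ttpa-/- cortex on the deficient diet at -1.54, and Ttpa-/- cerebellum on that diet at -2.35, the last above its group. Cycs by its brightest probe had 2, at 5.62 in young wild-type cerebellum and at 5.44 in Ttpa-/- cerebellum on the supplemented diet. Cox6a2 was at 3.14 on 1 array of young wild-type cortex, and Cox7a1 at 1.58 on 1 array of Ttpa-/- cerebellum on the deficient diet.

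The interaction of region and group passed the test in 5 cases, given as the cerebellar minus the cortical effect on the log2 scale. Against the normal-diet aged wild type, Ttpa-/- mice on the deficient diet differed between the regions by -0.58 for Cox6b2, -0.39 for Ndufaf3 and 0.39 for Cycs. Those on the supplemented diet differed by -0.47 for Ndufaf4 and -0.46 for Ndufaf3.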

How the results depend on the processing

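Counts below are called members, with the value reported first. Ttpa-/- cortex on the deficient diet against wild-type normal diet had 20, with 1 when a fold change over 1.5 was also required, 67 with array weights, 2 with the compared groups alone, 2 with median scaling, 11 and 54 by the methods' t-test with and without adjustment, and 6 without the 3 arrays of low Ttr. The cerebellum of these mice had 10, with 1, 17, 3 and 1 in that order, 19 with quantile normalization and 3 by the adjusted t-test. Deficient against supplemented diet in the Ttpa-/- cortex had 10, with 0, 36, 0 and 1, then 4 without the filter, 17 with quantile normalization, 3 and 43 by the t-test and 3 without the low-Ttr arrays. In the cerebellum this comparison had 0, with 1 under quantile normalization and 2 by the unadjusted t-test.

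Wild-type cerebellum on the deficient diet had 7, with 1 over 1.5-fold, 0 alone, 4 without the filter, 11 with normexp, 25 with quantile normalization, and 0 and 42 by the t-test. The wild-type cortex had 0, with 7 under array weights, 1 under quantile normalization, 21 by the unadjusted t-test and 1 without the low-Ttr arrays. Age in the cerebellum had 2, with 0 over 1.5-fold, 10 with weights, 1 alone, 0 with median scaling, 1 without the filter, 22 with quantile normalization and 4 and 28 by the t-test. Age in the cortex had 0, with 14 by the unadjusted t-test. The regional difference in the effect of age had 0, with 1 under weights and 1 under quantile normalization. That in the effect of Ttpa-/- on the deficient diet had 3, with 0 over 1.5-fold, 21 with weights, 0 alone, 0 with median scaling, 5 without the filter, 0 with normexp, 17 with quantile normalization and 1 without the low-Ttr arrays. Cortex against cerebellum had 57 at 2 and 54 at 29 months, with 7 and 6 over 1.5-fold and 14 and 13 with median scaling.

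Leaving out an array gave 6 to 39 in Ttpa-/- cortex and 6 to 18 in Ttpa-/- cerebellum on the deficient diet, 3 to 26 and 0 to 1 for deficient against supplemented diet, 0 to 2 in wild-type cortex and 0 to 11 in wild-type cerebellum on the deficient diet, 0 to 0 and 0 to 2 for age in cortex and cerebellum, 0 to 0 and 0 to 11 for the regional differences, and 46 to 51 and 41 to 47 between regions at 2 and 29 months. Cox4i1 between regions at 2 months reversed under quantile normalization (-0.059), as did Cox6a1 in Ttpa-/- mice on the deficient diet (-0.046), and Atp5sl in wild-type mice on the deficient diet reversed under median scaling (0.11). Of 1616 values of named members under other settings 1310 kept their call, 303 lost it and 3 reversed, and of 1656 without an array 1291 kept it and 365 lost it. The causes were not tested. Under median scaling the median change of all probes was -0.19 in wild-type cerebellum on the deficient diet, 0.17 for genotype on the deficient diet in the cerebellum, 0.09 for deficient against supplemented diet in the Ttpa-/- cortex and 0.29 for region in wild-type mice on the deficient diet.

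The replicate block gave 11 calls for the diets in the Ttpa-/- cortex, 25 in the Ttpa-/- cortex and 10 in the Ttpa-/- cerebellum on the deficient diet against wild-type normal diet, 7 in wild-type cerebellum on the deficient diet, 2 for age in the cerebellum, 58 and 55 between regions at 2 and 29 months and 4 for the regional difference in the Ttpa-/- effect, each within 1.5 times of the value without it. A block for the slide could not be fitted, since each group lies within 1 slide. With 4 arrays a group, the median SE of a member's change was 0.0838.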
